A study of Mus musculus with 48 samples.

Results

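The comparison described here is that of 3 libraries of sorted eye cells labelled fmr1ko with 3 libraries of sorted eye cells from wild-type mice. These are 6 of the 48 mouse libraries in a study of RNA in the axons of retinal ganglion cells, the output neurons of the eye, whose axons reach the brain. Both groups came from eyes at postnatal day 14 without axotomy, and both were purified by fluorescence-activated cell sorting (FACS). They were chosen by their deposited columns, and all expressed genes were compared, which left 15165 of 54331 genes after genes with low counts were removed. The labels give neither the allele, the strain, the stain nor the cell type of the sort, and they do not say whether the libraries of a group came from separate animals. The only extraction protocol in the labels describes superior colliculus, and p-values here cover only library-to-library spread, which may be technical.

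Fmr1 encodes FMRP, an RNA-binding protein that associates with messenger RNAs and ribosomes and represses the translation of many of its targets. Its loss causes fragile X syndrome in people, and the mouse knockout is a common model of that condition. FMRP acts beside its paralogs FXR1 and FXR2 and binds CYFIP1 and CYFIP2, which link it to translation initiation and to the actin cytoskeleton. In the retina, rods and cones detect light, bipolar, amacrine and horizontal cells process the signal, and retinal ganglion cells send it on.

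The 6 libraries were rich in rod messages. The 24 rod markers held 16.1%, 17.6% and 15.6% of the estimated counts in the libraries labelled fmr1ko, against 13.7%, 13.9% and 23.9% in the wild-type libraries. The 25 ganglion cell markers summed to 201 to 276 CPM (counts relative to library size, scaled by TMM factors) in fmr1ko libraries. In wild type they summed to 96.0 to 178 CPM. Their levels differed widely, and Stmn2 and Thy1 reached 115 and 47.0 CPM in an fmr1ko library. Rbpms had no count in any fmr1ko library and at most 3.50 CPM in wild type. Slc17a6, the vesicular glutamate transporter of these cells, was at most 0.216 CPM in any of the 6. Estimated counts totalled 28151594, 29425848 and 28459629 in the fmr1ko libraries and 48263706, 46395650 and 40395916 in wild type, so depth differed with the group. The share of tested genes without a count was 8.04%, 11.3% and 8.46% in fmr1ko libraries, against 7.82%, 0.844% and 0.237% in wild type. Pearson correlations of log2 CPM over the tested genes ran from 0.722 to 0.731 within the fmr1ko group and from 0.823 to 0.931 within wild type. Between the groups they ran from 0.701 to 0.813, and those of fmr1ko libraries with wild-type replicates 2 and 3 (0.770 to 0.813) lay above those within the fmr1ko group. The part of depth and of undetected genes in the results below was not tested.

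A gene was called where its p by edgeR's quasi-likelihood test, adjusted over every gene in the test (Benjamini-Hochberg), was under 0.05. Across the transcriptome, 8 genes were called higher in the libraries labelled fmr1ko, 0.0528% of those tested, and 1 was called lower, 0.00659%. At an unadjusted p under 0.05, 932 genes were higher (6.15%) and 1000 lower (6.59%). DESeq2 called 585 higher (3.99%) and 512 lower (3.49%) of the 14678 genes to which it gave an adjusted p. Limma called 14 higher (0.0923%) and 3 lower (0.0198%) on log2(TPM + 1), and 25 higher (0.165%) and 29 lower (0.191%) on log2(TPM + 0.1), and edgeR without a filter on low counts called 53 higher (0.22%) and 12 lower (0.0499%) of 24064. Counts over a gene list are to be read beside these shares of all genes. The groups did not overlap in 1427 genes that were higher (9.41%) and in 1957 that were lower (12.9%). The spread between libraries was wide, with a common biological coefficient of variation of 0.933. No gene of the 9 was called when any 1 of the 6 libraries was left out. Their adjusted p-values in those fits ran from 0.0727 to 0.265, and the signs did not turn.

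Fmr1 itself was detected under both labels. It had 26.9, 4.13 and 5.36 CPM in the libraries labelled fmr1ko, against 30.4, 17.7 and 7.77 CPM in wild type. The groups overlapped, fmr1ko replicate 1 lying above wild-type replicates 2 and 3, and edgeR's quasi-likelihood test gave a log2 fold change of −0.62 ± 0.90 (SE) with an adjusted p of 0.884. That value moved to −1.99 without fmr1ko replicate 1 and to −0.08 without wild-type replicate 1. Fmr1 lies on chromosome X at 68678541 to 68717963 on the plus strand (GRCm38, GENCODE M21), and since the allele is not given in the sources used here, its gene-level count does not check the label.

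None of the paralogs and partners of FMRP was called by edgeR, while DESeq2 called Fxr2 higher and Caprin1 lower. Fxr2, a paralog, had 145, 113 and 87.1 CPM in fmr1ko libraries, against 63.7, 55.2 and 57.9 CPM in wild type. All fmr1ko values lay above all wild-type values, with a log2 fold change of 0.96 ± 0.27 that missed the threshold (adjusted p = 0.162). In TPM its means were 53.0 in fmr1ko libraries and 49.1 in wild type, so the difference was far smaller on that scale. Fxr1 had 9.58, 47.4 and 9.84 CPM in fmr1ko libraries, against 0.628, 10.7 and 12.7 CPM in wild type, and its groups overlapped. Cyfip2 had 37.3, 26.8 and 6.26 CPM in fmr1ko libraries, against 49.0, 59.8 and 53.5 CPM in wild type. Its groups did not overlap, yet the log2 fold change of −1.21 ± 0.60 had an adjusted p of 0.480. Cyfip1 overlapped, with 4.59, 12.1 and 9.46 CPM in fmr1ko libraries and 10.3, 28.5 and 23.02 CPM in wild type. Caprin1, which binds FMRP in RNA granules, had 9.36, 25.8 and 18.95 CPM in fmr1ko libraries, against 63.6, 64.8 and 42.0 CPM in wild type (log2 change −1.66 ± 0.46, adjusted p = 0.160). Of the 10 tested members of this list, 1 lay wholly above wild type and 3 wholly below, beside 9.41% and 12.9% of all tested genes.

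**Figure D1:**
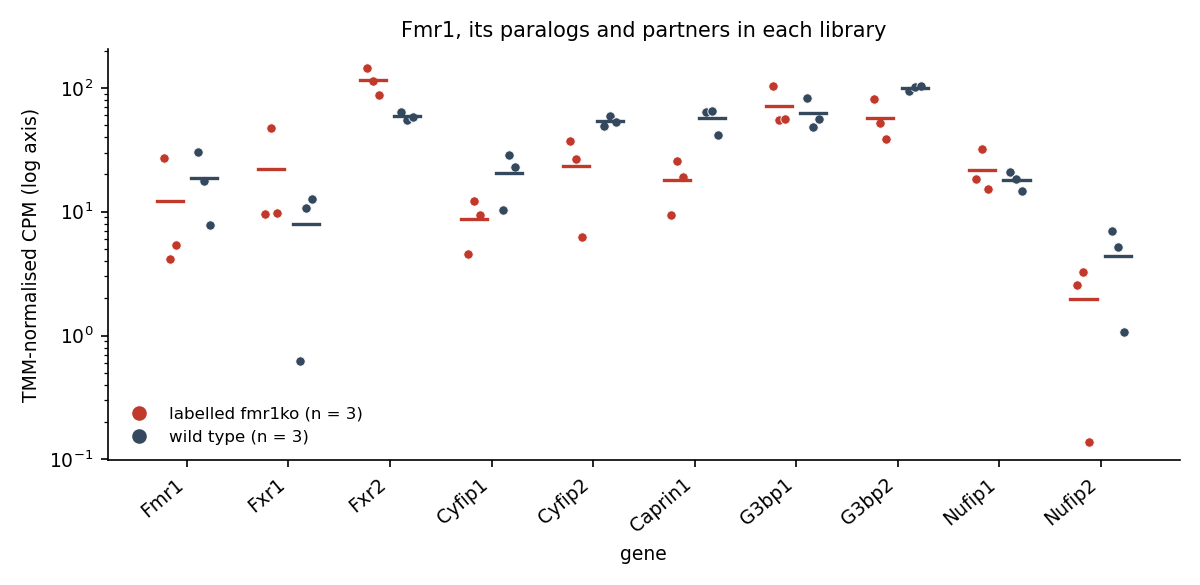
Levels of Fmr1, its paralogs and its partners in each library, as TMM-normalised CPM on a log axis. Points are libraries, with 3 labelled fmr1ko (red, left) and 3 wild type (dark, right) per gene, and bars are means. The Fmr1 values overlap between the labels, while the 3 fmr1ko values of Fxr2 lie above and those of Cyfip2, Caprin1 and G3bp2 below all wild-type values.

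Rax, a homeobox transcription factor that eye formation requires, had the smallest p. It had 201, 258 and 195 CPM in fmr1ko libraries, against 24.97, 27.9 and 22.8 CPM in wild type. The groups stood far apart relative to their spread, and the gene rose by 3.11 ± 0.25 on the log2 scale (adjusted p = 0.0297). Rax lies on chromosome 18 at 65928277 to 65939787 on the minus strand.

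Pcsk1n, which encodes proSAAS, a secretory granule protein that inhibits a prohormone convertase, rose most among the called genes. It had 164, 184 and 97.3 CPM in fmr1ko libraries, against 9.83, 6.45 and 6.19 CPM in wild type. Its lowest fmr1ko value lay well above its highest wild-type value, and the log2 fold change was 4.31 ± 0.38 (adjusted p = 0.0352). The gene lies on chromosome X at 7919822 to 7924410 on the plus strand.

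Both called genes with a mitochondrial product are encoded in the nucleus. Sdhaf1, an assembly factor of succinate dehydrogenase, had 116, 235 and 136 CPM in fmr1ko libraries, against 12.7, 13.3 and 15.9 CPM in wild type. It rose by 3.54 ± 0.35 on the log2 scale (adjusted p = 0.0363), with replicate 2 the highest. Mrpl54, a protein of the large subunit of the mitochondrial ribosome, had 527, 379.7 and 257 CPM in fmr1ko libraries, against 58.5, 42.2 and 61.9 CPM in wild type. It rose by 2.84 ± 0.33 (adjusted p = 0.04999), just inside the threshold. Sdhaf1 lies on chromosome 7 at 30321406 to 30323895 and Mrpl54 on chromosome 10 at 81264713 to 81266934, both on the minus strand.

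B4galt1, a Golgi enzyme that adds galactose to glycoproteins, had 423, 349.7 and 305 CPM in fmr1ko libraries, against 67.6, 82.1 and 80.3 CPM in wild type. This was the smallest of the called rises, 2.23 ± 0.23 on the log2 scale (adjusted p = 0.0363). Arglu1, a nuclear protein linked to splicing and transcription, had 269.9, 261 and 253 CPM in fmr1ko libraries, against 51.6, 31.2 and 30.7 CPM in wild type. The fmr1ko values lay within a narrow band, and the rise was 2.79 ± 0.28 (adjusted p = 0.0363). Zfp428, a zinc finger gene, had 129.8, 168 and 119 CPM in fmr1ko libraries, against 15.8, 14.5 and 23.4 CPM in wild type. It rose by 2.96 ± 0.31 (adjusted p = 0.0413) without overlap. B4galt1 lies on chromosome 4 at 40804602 to 40854005, Arglu1 on chromosome 8 at 8665075 to 8690521, both on the minus strand, and Zfp428 on chromosome 7 at 24507006 to 24515682 on the plus strand.

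Hba-a2, an adult alpha globin gene of red blood cells, was the remaining called rise. It had 119, 177 and 148 CPM in fmr1ko libraries, against 15.3, 5.75 and 11.0 CPM in wild type, a log2 fold change of 3.79 ± 0.43 (adjusted p = 0.04999). It lies on chromosome 11 at 32296489 to 32297298 on the plus strand and has a near-identical copy, Hba-a1, so the division of reads between the pair is uncertain.

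**Figure D2:**
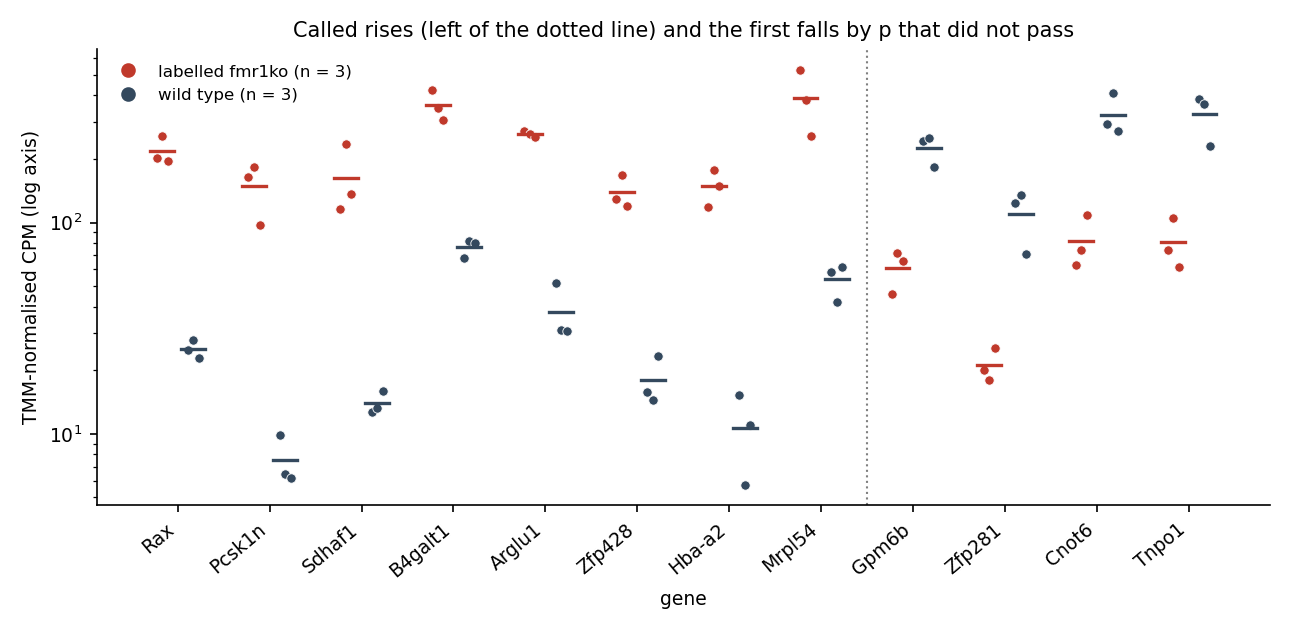
Levels of the 8 genes called higher (left of the dotted line) and of 4 genes with small p among falls that did not pass (right), in TMM-normalised CPM on a log axis. Points are libraries, 3 labelled fmr1ko (red, left) and 3 wild type (dark, right) per gene, and bars are means. In each of the 12 genes the 3 fmr1ko values lie wholly on one side of the 3 wild-type values.

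The bases before the annotated starts of called genes are shown because they are what a transcription factor acting on these promoters would meet. Entries for 5 of the 8 were taken from RefSeq on GRCm38.p6, with Hbb-bs, a beta globin gene, set beside Hba-a2. Each line gives the 100 bases before the start in RefSeq, 5′ to 3′ on the strand of the gene. The RefSeq starts differ from the ends of the GENCODE gene spans, so the windows of Sdhaf1 and Hbb-bs lie wholly and those of B4galt1, Zfp428 and Hba-a2 partly inside those spans. Capitals mark CCAAT on either strand, TATAA on the strand of the gene and TAATCC on either strand, the core that photoreceptor homeobox factors such as CRX bind.
Pcsk1n, chrX:7919722-7919821, plus strand: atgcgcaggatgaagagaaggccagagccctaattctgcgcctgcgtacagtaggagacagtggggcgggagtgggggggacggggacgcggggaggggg
Sdhaf1, chr7:30322376-30322475, minus strand: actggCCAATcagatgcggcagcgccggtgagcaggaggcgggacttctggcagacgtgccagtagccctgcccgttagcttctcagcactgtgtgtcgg
B4galt1, chr4:40853985-40854084, minus strand: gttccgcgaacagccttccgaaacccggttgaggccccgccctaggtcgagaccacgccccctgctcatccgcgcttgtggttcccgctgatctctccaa
Zfp428, chr7:24506987-24507086, plus strand: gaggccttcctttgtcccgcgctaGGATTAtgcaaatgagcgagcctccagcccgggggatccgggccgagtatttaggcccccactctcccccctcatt
Hba-a2, chr11:32296392-32296491, plus strand: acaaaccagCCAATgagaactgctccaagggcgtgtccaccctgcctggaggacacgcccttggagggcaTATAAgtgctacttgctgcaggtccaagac
Hbb-bs, chr7:103827929-103828028, minus strand: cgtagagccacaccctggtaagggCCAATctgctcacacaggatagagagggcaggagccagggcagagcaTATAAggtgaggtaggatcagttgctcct
Both globin genes carry CCAAT and TATAA, Sdhaf1 carries CCAAT, Zfp428 carries TAATCC on the opposite strand, and Pcsk1n and B4galt1 carry no such letters in this window. Of all 32851 promoters of the table, 18.9% hold CCAAT, 7.48% hold TATAA and 2.3% hold TAATCC in the same window, and a match of letters is a description, not a site.

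The only called fall was that of Rps6-ps4, a processed pseudogene of the ribosomal protein gene Rps6 on chromosome 2 at 75191073 to 75191822. It had no estimated count in any fmr1ko library, against 150.2, 39.995 and 62.4 CPM in wild type (adjusted p = 0.04999). Set against 3 counts summed over the fmr1ko libraries as a floor, it was at least 2343-fold lower. Reads of a pseudogene and its parent are divided by the quantification, so Rps6 and its 4 listed pseudogenes were summed. The sums were 1784, 2418 and 1804 CPM in fmr1ko libraries, against 490.0, 269.9 and 582 CPM in wild type, so the summed level was higher where the pseudogene was at 0. At no count in any fmr1ko library and at least 4 CPM in every wild-type library there were 3 genes, Rps6-ps4, Gm10288 and Gm5628, and none of them codes for protein. In the opposite direction there were 0 genes.

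No other fall was called by edgeR at the adjusted threshold, though 1000 genes were lower at an unadjusted p under 0.05 and DESeq2 called 512 lower. Gpm6b, a membrane glycoprotein of neurons and glia, had 45.9, 71.4 and 66.0 CPM in fmr1ko libraries, against 244, 250.3 and 183 CPM in wild type (log2 change −1.88 ± 0.27, adjusted p = 0.0715). Zfp281, a zinc finger factor of stem cells, had 20.1, 18.0 and 25.4 CPM in fmr1ko libraries, against 123, 135 and 71.1 CPM in wild type (−2.38 ± 0.34, adjusted p = 0.0759). In both genes the groups stood apart without reaching the threshold. Cnot6, a deadenylase that shortens poly(A) tails, had 63.3, 73.8 and 108 CPM in fmr1ko libraries, against 292, 409 and 272 CPM in wild type (−1.99 ± 0.29, adjusted p = 0.0778). Tnpo1, a nuclear import receptor, had 74.5, 105 and 61.8 CPM in fmr1ko libraries, against 386, 362 and 230.3 CPM in wild type (−2.02 ± 0.31, adjusted p = 0.0886). In this pair too the fmr1ko values lay wholly below those of wild type. The merged exons of these genes ran from 4937 bases in Zfp281 to 11212 bases in Tnpo1.

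Messages of red blood cells stood highest relative to wild type among 13 marker lists. The 6 markers summed to 468, 329.97 and 368 CPM in fmr1ko libraries, against 41.5, 18.9 and 25.6 CPM in wild type. The groups did not overlap, the mean of the sums stood 13.5-fold higher in fmr1ko libraries, and the exact two-sided permutation test over libraries gave p = 0.1, the smallest that 3 against 3 allows. Of the 5 members tested, 1 was called higher and 0 lower, beside 0.0528% and 0.00659% of all genes. At an unadjusted p under 0.05, 4 were higher (80%, beside 6.15% of all genes), and DESeq2 called 3 higher (60%, beside 3.99%). With the length trend removed (described below) 0 were called and the median log2 fold change was 2.45, beside 3.38. Hbb-bs, the beta chain, had 251, 75.5 and 119 CPM in fmr1ko libraries, against 7.69, 4.35 and 7.77 CPM in wild type (log2 change 4.49 ± 0.54, adjusted p = 0.0583). Hba-a1 had 76.0, 70.7 and 76.2 CPM in fmr1ko libraries, against 12.8, 4.41 and 4.24 CPM in wild type. Alas2, the first enzyme of haem synthesis in red cells, and Slc4a1, their anion exchanger, did not follow: Alas2 had 0, 6.03 and 0 CPM in fmr1ko libraries, against 3.51, 3.43 and 1.27 CPM in wild type, and Slc4a1 had none in any library. In bulk samples, more cells of a type and more of their RNA per cell cannot be told apart.

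The sums of photoreceptor and interneuron markers overlapped between the labels. The rod list summed to 162420, 192800 and 154720 CPM in fmr1ko libraries, against 130040, 119270 and 273000 CPM in wild type, where replicate 3 stood above all others (exact permutation p = 1). Within that list Guca1b, an activator of retinal guanylate cyclase, had 1909.8, 2999.8 and 2611 CPM in fmr1ko libraries, against 1056, 1220.2 and 1705 CPM in wild type. Its groups did not overlap, with an adjusted p of 0.193. Nrl and Nr2e3, the transcription factors that set rod identity, had log2 fold changes of 0.60 ± 0.38 and −0.36 ± 0.22, with adjusted p-values of 0.628 and 0.596.

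Cone markers summed to 1042, 696 and 753 CPM in fmr1ko libraries and 1209.9, 741 and 1169 CPM in wild type. Their members did not move alike. Pde6h, the inhibitory subunit of the cone phosphodiesterase, had 88.2, 68.2 and 73.1 CPM in fmr1ko libraries, against 18.7, 7.98 and 25.4 CPM in wild type, a log2 fold change of 2.14 ± 0.46 (adjusted p = 0.121). Thrb, a thyroid hormone receptor of cones, had 46.8, 43.5 and 29.1 CPM in fmr1ko libraries, against 89.3, 79.4 and 75.5 CPM in wild type (−1.03 ± 0.29, adjusted p = 0.167). The bipolar sums were 676, 862 and 731 CPM in fmr1ko libraries and 838, 737 and 1062 CPM in wild type, and Otx2, a transcription factor of these cells and of photoreceptors, overlapped between the groups. Horizontal cell sums were 206, 244 and 270 CPM in fmr1ko libraries and 248, 137 and 204 CPM in wild type. Sept4 alone gave 203, 242 and 267 CPM and 229, 126 and 188 CPM of them. Calb1 and Prox1, at most 5.10 and 11.6 CPM in any library, lay wholly below wild type.

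The ganglion cell list summed to 276, 224 and 201 CPM in fmr1ko libraries, against 178, 96.0 and 126 CPM in wild type. The groups did not overlap (exact permutation p = 0.1), and the members divided. Stmn2, a regulator of microtubules in axons, had 42.8, 115 and 55.0 CPM in fmr1ko libraries, against 21.9, 8.57 and 5.96 CPM in wild type (log2 change 2.54 ± 0.63, adjusted p = 0.129). Thy1, a surface protein of ganglion cells, had 47.0, 15.7 and 27.5 CPM in fmr1ko libraries, against 10.03, 2.76 and 3.56 CPM in wild type (adjusted p = 0.197). Rbpms, a marker largely restricted to ganglion cells within the retina, was at 0 in all fmr1ko libraries, against 2.83, 2.95 and 3.50 CPM in wild type (adjusted p = 0.121). Stmn2 and Thy1 are expressed by other neurons too. Of the 25 markers, 7 had no count in any fmr1ko library and 2 had none in any wild-type library.

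Lens crystallins were highest in a single library. The 19 lens markers summed to 53.4, 482 and 21.7 CPM in fmr1ko libraries, against 9.56, 55.7 and 28.8 CPM in wild type. Crybb3 had 42.7 CPM in fmr1ko replicate 2 and 0 in the other fmr1ko libraries, against 0, 2.49 and 0.452 CPM in wild type. Microglial markers were low everywhere, with sums of 30.3, 11.9 and 21.3 CPM in fmr1ko libraries and 14.7, 11.8 and 18.5 CPM in wild type. Of the 14, 9 had no count in any fmr1ko library and 1 had none in any wild-type library. Müller glia and astrocyte markers overlapped, at 1919, 3329 and 2694 CPM in fmr1ko libraries and 1317, 2004 and 3100 CPM in wild type. Vessel markers overlapped too, at 2163, 2068 and 1589 CPM in fmr1ko libraries and 1729, 1219.8 and 2291 CPM in wild type. Most of these sums was Vtn, at 1719.5, 1750.7 and 1379.5 CPM in fmr1ko libraries and 1439.6, 1076.6 and 1920.4 CPM in wild type. Pdgfrb lay wholly above wild type (log2 change 1.91 ± 0.80, adjusted p = 0.370). Pecam1 had a log2 change of −3.28 ± 1.38 (adjusted p = 0.374) with overlap.

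**Figure D3:**
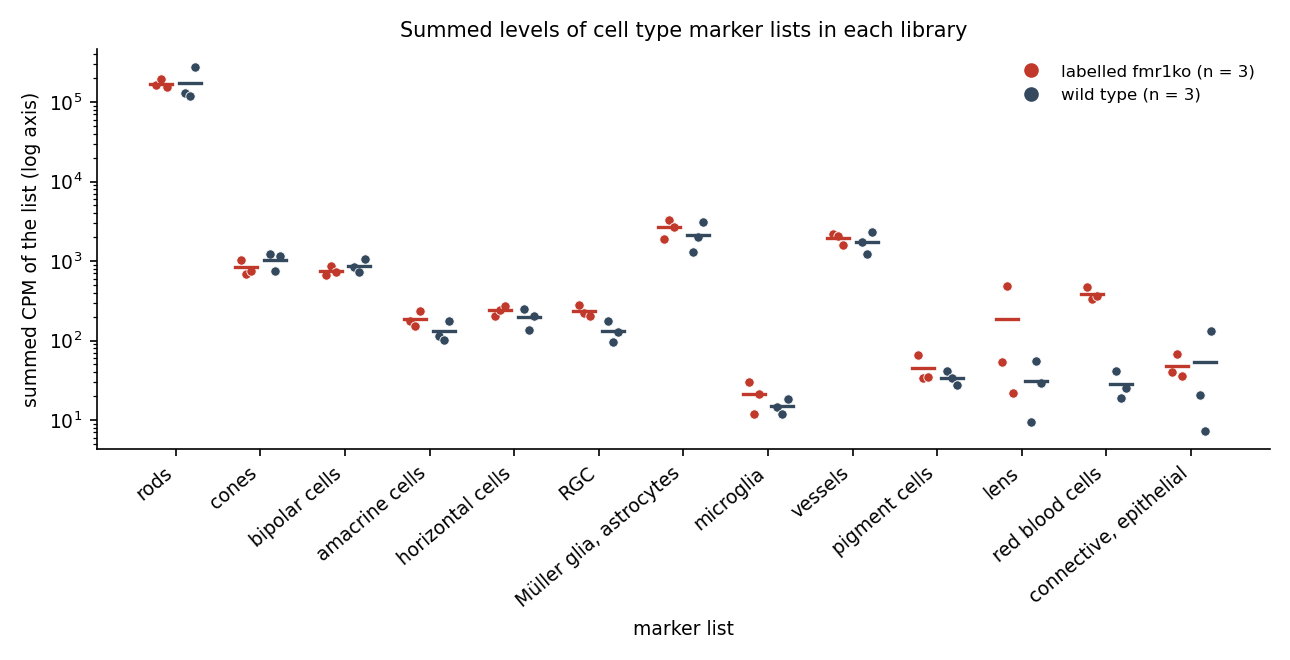
Summed CPM of 13 cell type marker lists in each library, on a log axis. Points are libraries, 3 labelled fmr1ko (red, left) and 3 wild type (dark, right) per list, and bars are means. The red blood cell and ganglion cell lists are the 2 whose groups do not overlap, and the lens list is high in fmr1ko replicate 2.

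Ribosomal protein messages lay higher in the libraries labelled fmr1ko as a group, although no single member was called. Their 79 genes summed to 49842, 52577 and 38895 CPM in fmr1ko libraries, against 20137, 12376 and 25182 CPM in wild type. The groups did not overlap (exact permutation p = 0.1). With edgeR, 0 of 79 were called, 62 were higher and 1 lower at an unadjusted p under 0.05, and 63 did not overlap on the higher side and 1 on the lower. The non-overlapping members made up 79.7% on the higher side, beside 9.41% of all tested genes. DESeq2 called 54 higher, 68.4% beside 3.99% of all genes, edgeR without a filter called 15, and limma called 5 on log2(TPM + 1) and 8 on log2(TPM + 0.1). The median log2 fold change was 1.38, beside 0.02 over all tested genes, and it was 0.87 when a trend on transcript length was removed. Rps27a, made as a fusion of ubiquitin and a small subunit protein, had 907, 885 and 866 CPM in fmr1ko libraries, against 187, 98.5 and 196 CPM in wild type (log2 change 2.47 ± 0.30, adjusted p = 0.0583). Rps20, a small subunit protein, had 555, 574 and 361 CPM in fmr1ko libraries, against 83.2, 53.1 and 105 CPM in wild type (2.62 ± 0.33, adjusted p = 0.0641). Rps6, which mTOR signalling phosphorylates, had 1783, 2418 and 1803 CPM in fmr1ko libraries, against 339.7, 229 and 519.7 CPM in wild type (2.46 ± 0.34, adjusted p = 0.0715). In all 3 the lowest fmr1ko value exceeded the highest wild-type value.

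Ribosomal protein messages are known for a run of pyrimidines at their start, through which mTOR controls their translation. The start of Rps6 is shown for that reason, as 15 bases before and 15 after the annotated start in RefSeq on GRCm38.p6, with the longest run of C and T in capitals; this window too lies inside the GENCODE span.
Rps6, chr4:86857353-86857382, minus strand: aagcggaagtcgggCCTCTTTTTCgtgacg
A run of at least 8 C or T stood in this window in 27 of 68 annotated starts of ribosomal protein genes (39.7%), from 58 of the 79 genes, and in 12% of all 32851 starts of the table.

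Messages of the respiratory chain are encoded in part by the nucleus and in part by mitochondria. The 76 tested nuclear genes of oxidative phosphorylation summed to 21205, 22513 and 17128 CPM in fmr1ko libraries, against 13281, 10788 and 16437 CPM in wild type. With edgeR, 0 were called, 45 were higher and 2 lower at an unadjusted p under 0.05, and DESeq2 called 37 higher and 1 lower, edgeR without a filter called 2 higher, and limma called 0 on log2(TPM + 1) and 1 higher on log2(TPM + 0.1). The share called higher by DESeq2 was 48.7%, beside 3.99% of all genes. Their median log2 fold change was 1.07, and 0.35 with the length trend removed. Ndufab1, an acyl carrier protein of complex I, had 177, 243 and 235 CPM in fmr1ko libraries, against 63.2, 59.8 and 86.2 CPM in wild type (log2 change 1.65 ± 0.26, adjusted p = 0.0886). Atp5h, a subunit of ATP synthase, had 379, 396 and 318 CPM in fmr1ko libraries, against 147, 81.2 and 115 CPM in wild type (1.67 ± 0.27, adjusted p = 0.0898). Atp5b, the catalytic subunit and among the most abundant of the list, overlapped, with 2183, 2426 and 2222 CPM in fmr1ko libraries and 2574, 2140.0 and 3424 CPM in wild type.

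The 13 mitochondrially encoded messages had lower sums. They summed to 12325, 14930 and 24597 CPM in fmr1ko libraries, against 64436, 25709 and 28913 CPM in wild type. Their median log2 fold change was −1.39, −2.17 with the length trend removed, −0.85 without wild-type replicate 1 and −0.92 with voom weights. With edgeR 0 were called and 8 were lower at an unadjusted p under 0.05 (61.5%, beside 6.59% of all genes). DESeq2 called 7 lower (53.8%, beside 3.49% of all genes). The sums did not overlap by a small margin, and wild-type replicate 1 alone stood far above the rest. mt-Nd5, a subunit of complex I, had 139, 126 and 205 CPM in fmr1ko libraries, against 2809.6, 714 and 296 CPM in wild type (−3.02 ± 0.77, adjusted p = 0.131). mt-Nd1 had 1178, 1281 and 1358 CPM in fmr1ko libraries, against 4633, 2509 and 2059 CPM in wild type (adjusted p = 0.135). mt-Co2, a subunit of cytochrome oxidase, overlapped between the groups.

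The proteasome, which degrades ubiquitin-tagged proteins, had 0 of 32 genes called by edgeR, 7 higher at an unadjusted p under 0.05 (21.9%, beside 6.15% of all genes) and 4 called higher by DESeq2 (12.5%, beside 3.99%). Psmb6, a catalytic subunit, had 322, 282 and 246 CPM in fmr1ko libraries, against 101, 94.9 and 139 CPM in wild type (log2 change 1.34 ± 0.24, adjusted p = 0.0964). Psmb3 had 236, 229.8 and 163 CPM in fmr1ko libraries, against 55.8, 71.9 and 108 CPM in wild type (1.42 ± 0.31, adjusted p = 0.121). The median of the list was 0.43 and turned to −0.05 with the length trend removed, so it holds no direction over both.

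**Figure D4:**
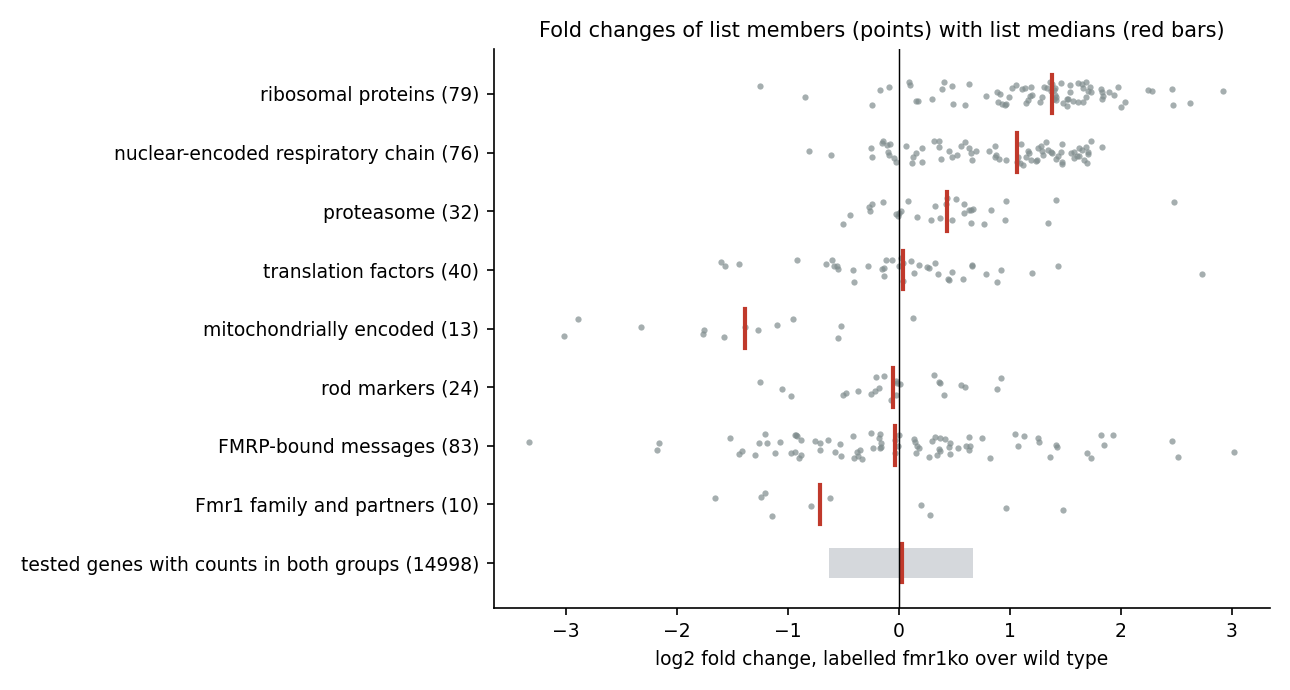
Log2 fold changes, labelled fmr1ko over wild type, of the members of 8 gene lists (points, number of members in brackets) with the median of each list as a red bar. The grey box at the bottom gives the quartiles of the 14998 tested genes with counts in both groups, −0.63 to 0.67. Ribosomal protein genes have a median of 1.38, nuclear respiratory chain genes of 1.07 and mitochondrially encoded genes of −1.39.

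Fold changes followed transcript length. Over 6982 protein-coding genes with an average log2 CPM of at least 4, the log2 fold change and the log2 of the merged exon length had a Pearson correlation of −0.352 and a Spearman correlation of −0.336 across genes, which share the same 6 libraries and are not independent. Genes were divided into 5 bins of length. In the shortest bin, up to 2656 bases, the median log2 fold change was 0.51, and 30.8% of 1397 genes lay wholly above wild type, against 3.08% wholly below. In the longest bin, from 8078 bases, the median was −0.17, with 5.87% wholly above and 18.9% wholly below. The shortest bin was not made up of the ribosomal and respiratory lists alone. Its 108 members of those lists had a median of 1.28, and the other 1289 genes had a median of 0.47. Of the called rises, Hba-a2 (667 bases), Mrpl54 (825 bases) and Zfp428 (1308 bases) fall in the shortest bin, as do Pcsk1n (2193 bases) and Sdhaf1 (2490 bases), while B4galt1 (4234 bases), Arglu1 (5477 bases) and Rax (5846 bases) do not. With the length trend removed, an alternative chosen after seeing the data, 6 genes were called, 5 higher and 1 lower.

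**Figure D5:**
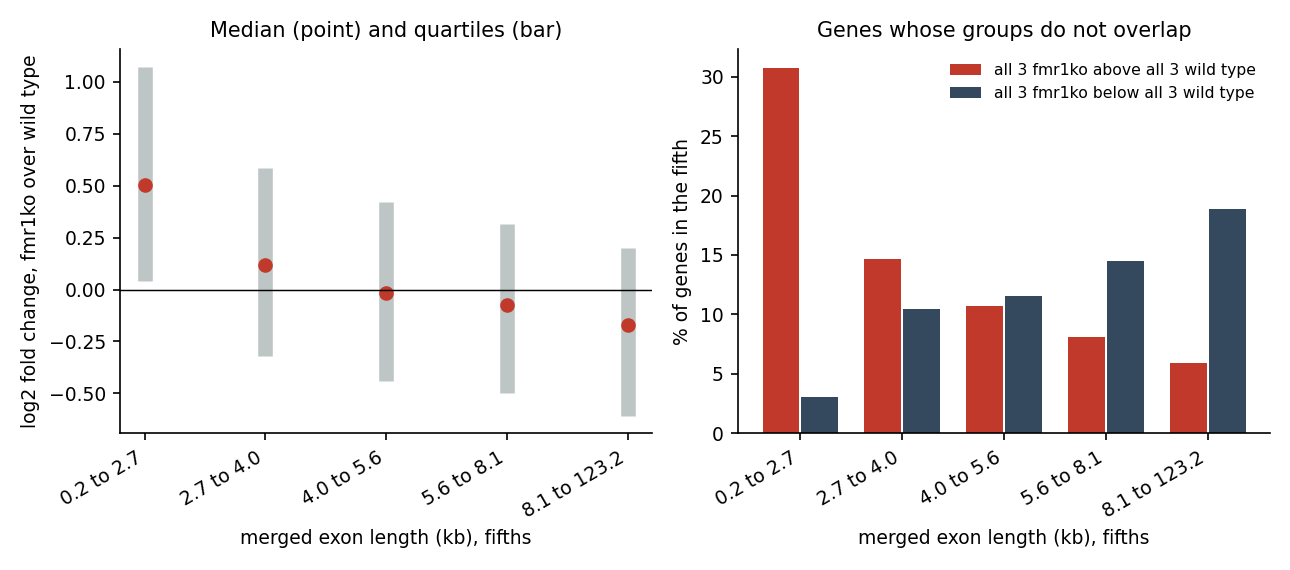
Left, the median (point) and quartiles (bar) of the log2 fold change, labelled fmr1ko over wild type, in 5 bins of 6982 protein-coding genes by merged exon length in kb. Right, the percentage of genes in each bin whose 3 fmr1ko values lie all above (red) or all below (dark) the 3 wild-type values. The medians decline from 0.51 in the shortest bin to −0.17 in the longest, and the share wholly above declines from 30.8% to 5.87%.

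Long messages reported as bound by FMRP were spread on both sides of wild type. Of 83 tested, 0 were called by edgeR, 5 were higher and 7 lower at an unadjusted p under 0.05, and DESeq2 called 1 higher and 4 lower. Wholly above wild type lay 9 and wholly below 9, or 10.8% each, near the 9.41% and 12.9% of all tested genes, and the median log2 fold change was −0.03, which turned to 0.22 with the length trend removed. Atp2a2, the calcium pump of the endoplasmic reticulum, had 73.0, 89.0 and 65.6 CPM in fmr1ko libraries, against 143, 151 and 152 CPM in wild type (−0.97 ± 0.22, adjusted p = 0.128). Sptbn1, a spectrin of the membrane skeleton, had 85.4, 105 and 99.5 CPM in fmr1ko libraries, against 217, 163 and 152 CPM in wild type (−0.88 ± 0.24, adjusted p = 0.147). Map1b, a microtubule-associated protein and a classic FMRP target, overlapped, with 922, 741 and 663 CPM in fmr1ko libraries and 745, 754 and 1095 CPM in wild type (−0.16 ± 0.25, adjusted p = 0.894).

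Translation factors and mTOR genes had members on both sides of wild type. Of 40 translation factors, 0 were called by edgeR, and 6 were higher (15%) and 4 lower (10%) at an unadjusted p under 0.05, beside 6.15% and 6.59% of all genes. DESeq2 called 3 in each direction (7.5%, beside 3.99% higher and 3.49% lower of all genes). Pabpc1, the cytoplasmic poly(A)-binding protein, had 143, 207 and 128 CPM in fmr1ko libraries, against 333, 407 and 557 CPM in wild type (−1.44 ± 0.29, adjusted p = 0.114). Eif4g2, an initiation factor of the eIF4G family, had 212, 281 and 233 CPM in fmr1ko libraries, against 524, 482 and 366 CPM in wild type (−0.92 ± 0.23, adjusted p = 0.129). Eef1a1, the elongation factor, overlapped between the groups. Of 23 mTOR pathway genes, 0 were called by edgeR, 2 were higher and 4 lower at an unadjusted p under 0.05, and DESeq2 called 1 higher and 2 lower. At that p 8.7% were higher and 17.4% lower, beside 6.15% and 6.59% of all genes. Wholly below wild type lay 30.4%, beside 12.9% of all genes, and wholly above 13%, beside 9.41%. A positive log2 fold change was seen in 10 of the 23. Pik3ca, the catalytic subunit of a kinase upstream of mTOR, had 59.9, 41.3 and 47.9 CPM in fmr1ko libraries, against 195, 147 and 104 CPM in wild type (−1.58 ± 0.31, adjusted p = 0.106).

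Synaptic and cytoskeletal genes held several members whose groups stood apart without a call. Of 35 presynaptic genes, 0 were called by edgeR, 1 was higher and 5 lower at an unadjusted p under 0.05, and DESeq2 called 1 higher and 4 lower. The lower ones made up 14.3% at that p, beside 6.59% of all genes, and 11.4% with DESeq2, beside 3.49%. Snap25, a SNARE protein of vesicle fusion, had 220.3, 381 and 487 CPM in fmr1ko libraries, against 876, 806 and 886 CPM in wild type (−1.24 ± 0.30, adjusted p = 0.129). Rph3a, a Rab effector on vesicles, had 52.2, 52.4 and 21.5 CPM in fmr1ko libraries, against 6.38, 2.08 and 6.95 CPM in wild type (3.03 ± 0.66, adjusted p = 0.121). Cplx4, a complexin of photoreceptor and bipolar synapses, overlapped. Of 35 cytoskeletal and transport genes, 0 were called by edgeR, 8 were higher and 3 lower at an unadjusted p under 0.05, and DESeq2 called 6 higher and 1 lower. The higher ones made up 22.9% at that p, beside 6.15% of all genes. Mapt, which encodes tau, had 196, 129.8 and 200.1 CPM in fmr1ko libraries, against 75.6, 22.1 and 33.4 CPM in wild type (2.004 ± 0.47, adjusted p = 0.129). Tubb3, the neuronal tubulin, had 231, 289 and 191 CPM in fmr1ko libraries, against 113, 111 and 124 CPM in wild type (1.03 ± 0.23, adjusted p = 0.126).

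Stress genes were mixed. Ddit3, a transcription factor of the integrated stress response, had 124, 174 and 124 CPM in fmr1ko libraries, against 24.0, 49.9 and 65.8 CPM in wild type (1.597 ± 0.39, adjusted p = 0.129). Atf4, which acts above it, had 669.5, 1142 and 861 CPM in fmr1ko libraries, against 606, 493 and 619 CPM in wild type (0.64 ± 0.25, adjusted p = 0.336). Neither passed, and of the 17 genes of that response 0 were called by edgeR. At an unadjusted p under 0.05, 2 were higher (11.8%, beside 6.15% of all genes), and DESeq2 called 1 higher (5.88%, beside 3.99%). Among 14 heat shock genes 0 were called by edgeR, 1 was higher and 5 lower at an unadjusted p under 0.05, and DESeq2 called 1 in each direction. Those lower at that p were 35.7% of the list, beside 6.59% of all genes. Of the 14, 3 had a positive log2 fold change. Hspa1a, an inducible chaperone, had 35.2, 43.0 and 24.0 CPM in fmr1ko libraries, against 98.7, 81.9 and 57.9 CPM in wild type (−1.22 ± 0.35, adjusted p = 0.170), and Hspe1, a mitochondrial chaperonin, had 47.7, 33.5 and 41.1 CPM in fmr1ko libraries, against 15.1, 7.87 and 13.6 CPM in wild type (1.74 ± 0.44, adjusted p = 0.131). Immediate early genes, which report recent activity or handling, had 0 of 16 called by edgeR and 0 by DESeq2. At an unadjusted p under 0.05, 1 was higher (6.25%, near the 6.15% of all genes).

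Among 22 retinal transcription factors, edgeR called Rax and no other, with 1 higher and 2 lower at an unadjusted p under 0.05. These were 4.55% and 9.09% of the list, beside 6.15% and 6.59% of all genes. Neurod1, a factor of photoreceptor and amacrine development, had 62.2, 97.6 and 156 CPM in fmr1ko libraries, against 543, 277 and 147 CPM in wild type (−1.61 ± 0.52, adjusted p = 0.227), with overlap through wild-type replicate 3. Pax6, a factor of amacrine and ganglion cells, had 30.3, 39.5 and 53.7 CPM in fmr1ko libraries, against 6.54, 14.04 and 31.5 CPM in wild type (adjusted p = 0.474). Over all 36 lists, Rax and Hba-a2 were the only members that edgeR called with the filter on low counts.

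Of the metabolic lists outside the respiratory chain, glycolysis and cholesterol synthesis held no gene called by edgeR. Of 17 glycolysis genes, 0 were called by edgeR and 2 were lower at an unadjusted p under 0.05 (11.8%, beside 6.59% of all genes). DESeq2 called 1 lower (5.88%, beside 3.49%). Eno1, the glycolytic enolase, had 2045, 2413 and 1641 CPM in fmr1ko libraries, against 3562, 4136 and 3022 CPM in wild type (−0.81 ± 0.24, adjusted p = 0.188). Of 20 cholesterol synthesis genes, 0 were called by edgeR and 2 were higher at an unadjusted p under 0.05 (10%, beside 6.15% of all genes). DESeq2 called 1 higher (5%, beside 3.99%). Fdps, which makes farnesyl diphosphate, had 96.0, 90.3 and 101 CPM in fmr1ko libraries, against 45.0, 41.1 and 43.3 CPM in wild type (1.15 ± 0.24, adjusted p = 0.114). Both genes had groups that did not overlap. Gas5, a long noncoding RNA that hosts small nucleolar RNAs, had 59.4, 81.0 and 98.2 CPM in fmr1ko libraries, against 35.4, 43.1 and 49.0 CPM in wild type (0.90 ± 0.30, adjusted p = 0.245).

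The same label was set against wild type in 2 further captures of the series, both from superior colliculus at postnatal day 14, which share no library with the eye cells. Those were ribosome-bound RNA from axon-TRAP (translating ribosome affinity purification, 3 fmr1ko and 3 wild-type libraries) and RNA captured through an ethynyl uridine (EU) label injected into the eye (3 and 3). The wild-type libraries were replicates 3 to 5 of each capture. Wild-type replicates 1 and 2 of each were left out, because their titles carry another series of codes. An interaction term tested whether the effect of the label differed from that in eye cells. It did for 353 genes against TRAP (1.9%) and for 327 genes against EU (1.73%). The count against TRAP rested on every eye library: it was 5, 4 and 8 without fmr1ko replicates 1, 2 and 3, and 10, 5 and 17 without wild-type replicates 1, 2 and 3. It was 46 without fmr1ko TRAP replicate 3, 20, 11 and 79 without wild-type TRAP replicates 3, 4 and 5, and 947 without fmr1ko TRAP replicate 2. The count against EU was 98 and 136 without wild-type eye replicates 2 and 3, 37 and 76 without fmr1ko EU replicates 1 and 2, 47 and 32 without wild-type EU replicates 3 and 4, and 1408 without wild-type EU replicate 5. Among the called rises, Zfp428 differed from both: it had 27.9, 20.3 and 30.8 CPM in fmr1ko TRAP libraries, against 110.3, 87.1 and 137.8 CPM in wild-type TRAP, and the difference of effects was 5.07 on the log2 scale (adjusted p = 0.00588). Mrpl54 also differed from both, by 3.56 against TRAP (adjusted p = 0.0299) and 3.82 against EU (adjusted p = 0.0125). Sdhaf1 had 5.76, 5.46 and 9.72 CPM in fmr1ko EU libraries, against 11.7, 13.1 and 10.4 CPM in wild-type EU, and its effect differed by 4.38 (adjusted p = 0.0122). Pcsk1n and Hba-a2 differed from EU, by 5.15 (adjusted p = 0.0191) and 5.22 (adjusted p = 0.0173), and not past the threshold from TRAP. For B4galt1 and Arglu1 neither difference passed. None of the called rises was called in either colliculus comparison, where Rax was not among the tested genes. In the interaction models neither difference passed for Rax (adjusted p = 0.917 against TRAP and 0.99993 against EU). No size is given for it, because its counts in colliculus were too low to be tested there. Whether its rise differs between captures thus cannot be told. Arglu1 had 79.7, 42.3 and 36.8 CPM in fmr1ko EU libraries, against 6.69, 8.33 and 21.9 CPM in wild-type EU, without overlap and with an adjusted p of 0.0761. Fmr1 itself had 9.93, 4.91 and 13.2 CPM in fmr1ko EU libraries, against 1.22, 1.64 and 0.452 CPM in wild-type EU (log2 change 3.07, adjusted p = 0.0686). In TRAP it had 0.138, 13.4 and 2.49 CPM in fmr1ko libraries, against 2.79, 4.44 and 11.7 CPM in wild type. Neither interaction passed for Fmr1 (adjusted p = 0.975 against TRAP and 0.140 against EU). Tissue, capture and cell composition differ together between these sets and cannot be told apart.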

How the data were processed

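The data are gene tables of 48 mouse libraries, of which the 6 FACS eye libraries and 12 superior colliculus libraries were used. The submitters' processing notes name Salmon and mm10, with version, annotation and strand setting not given in the sources used here. As the file headers show, the deposited tables hold estimated counts per Ensembl gene and TPM scaled by the authors. Of 54331 genes, 54097 matched GENCODE M21 on GRCm38, the source of symbols, positions and merged exon lengths.

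Counts were rounded, filtered with filterByExpr, scaled with TMM factors and tested with the two-sided quasi-likelihood F test of edgeR 4.0.16 (R 4.3.3), with Benjamini-Hochberg adjustment over all tested genes. The SE of a log2 fold change is its size over the square root of F. An interaction model over 12 libraries, fitted once for TRAP and once for EU, compared the effect of the label between captures. Marker sums were tested by exact permutation over libraries. A fold against a group without counts is a lower bound from a floor of 3 counts over that group, which covers counting error only.

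Named genes were up to 12 called rises and 12 called falls that differed by a log2 of 1 or more either way, averaged a log2 CPM of 4 or more and did not overlap, filled up to 6 per direction by the smallest p, then 2 members of each list by TPM and 2 by p, and the Fmr1 family. Genes of the interactions were the 3 of each sign with the smallest adjusted p, leaving out those with a group at 0. Hba-a1, Alas2, Slc4a1, Slc17a6, Gm10288 and Gm5628 were named after their values were seen. Some genes that these rules select are not reported here. The comparison, the 36 gene lists and the rules were chosen with earlier results of these data known. Alternatives were RLE factors, no filter, DESeq2 1.42.0, limma 3.58.1 on log2(TPM + 1) or log2(TPM + 0.1), voom with sample quality weights, other library compositions, a replicate block, a spread shared over 12 eye libraries, each library left out and, added after seeing the data, a length trend removed. The procedure was tested on simulated counts.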

Additional observations from a re-analysis of the deposited data

Results flagged for a closer look

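The effect of the fmr1ko label differed between FACS eye cells and the captures from superior colliculus for 353 genes (TRAP) and 327 genes (EU), by the interaction test of edgeR. What follows are the genes with the smallest adjusted p of each sign, with CPM scaled over each set of 12 libraries (within its own capture for Rps6-ps4), and the called genes of the eye cells that differed. No explanation was tested.

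Against TRAP, the effect in eye cells was higher for Zfp428 by 5.07 (adjusted p = 0.00588), for Mrpl54 by 3.56 (adjusted p = 0.0299), for Acot13 by 4.97 and for Ndufab1 by 3.84 on the log2 scale (both adjusted p = 0.0163). Acot13, a thioesterase, had 51.0, 60.1 and 28.0 CPM in fmr1ko eye cells, against 15.6, 10.9 and 13.5 CPM in wild-type eye cells, and 6.45, 6.19 and 6.96 CPM in fmr1ko TRAP, against 70.5, 58.3 and 47.7 CPM in wild-type TRAP. Ndufab1 had 50.8, 90.4 and 70.7 CPM in fmr1ko TRAP libraries, against 340.2, 299.6 and 325 CPM in wild-type TRAP.

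The effect in eye cells was lower than in TRAP for Malat1, with a difference of −6.87 (adjusted p = 0.00669), for Fgd4, with −4.83 (adjusted p = 0.0235), and for Chek2, with −5.14 (adjusted p = 0.0239). Malat1, a nuclear long noncoding RNA, had 280.0, 356 and 442 CPM in fmr1ko eye cells, against 358, 829 and 614 CPM in wild-type eye cells, and 1403, 751 and 1211 CPM in fmr1ko TRAP, against 7.13, 21.8 and 19.1 CPM in wild-type TRAP. Its difference thus lay on the TRAP side.

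Rps6-ps4, the called fall of the eye cells, also differed from TRAP (adjusted p = 0.00584) and from EU (adjusted p = 0.0306), and no size is given because it had no count in fmr1ko eye cells. It had 36.9, 58.2 and 34.0 CPM in fmr1ko TRAP libraries, against 62.3, 61.3 and 36.7 CPM in wild-type TRAP, and 70.9, 138.6 and 66.6 CPM in fmr1ko EU, against 42.6, 35.9 and 0 CPM in wild-type EU.

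Against EU, the effect in eye cells was higher for Sdhaf1 by 4.38, for Mrpl54 by 3.82, for Raly by 4.02, for Pcsk1n by 5.15, for Hba-a2 by 5.22 and for Zfp428 by 3.63 (adjusted p from 0.0122 for Sdhaf1 to 0.0473 for Zfp428). Raly, an RNA-binding protein, had 106, 156 and 112 CPM in fmr1ko eye cells, against 50.5, 22.2 and 32.5 CPM in wild-type eye cells, and 4.57, 7.61 and 9.09 CPM in fmr1ko EU, against 28.0, 33.6 and 35.5 CPM in wild-type EU.

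It was lower than in EU for mt-Nd4, with a difference of −7.03 (adjusted p = 0.00807), for mt-Atp6, with −6.33 (adjusted p = 0.0122), and for Bbs7, with −3.69 (adjusted p = 0.0123). mt-Nd4, a subunit of complex I, had 838, 926 and 1328 CPM in fmr1ko eye cells, against 6166, 2741 and 1728 CPM in wild-type eye cells, and 12446, 33569 and 9255 CPM in fmr1ko EU, against 548, 358 and 544 CPM in wild-type EU. All 3 fmr1ko values of this gene lay below wild type in eye cells and above it in EU.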

How the results depend on the processing

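Each of the 9 called genes (8 higher, 1 lower) was called in 6 to 8 of 16 alternatives. With RLE factors (6 higher, 0 lower) and with voom weights (19 higher, 0 lower) the called fall was lost. The count of 9 was 6 with RLE factors or the length trend removed and 9 without rod, lens, mitochondrial and CT010467.1 genes. It moved to 65 without a filter, 1097 with DESeq2, 17 and 54 with limma on log2(TPM + 1) and log2(TPM + 0.1), 19 with voom weights and 0 with a spread shared over 12 eye libraries (1203 at an unadjusted p under 0.05). Leaving out 1 library gave 0 to 1 calls, none of them among the 9. The median over all genes was 0.02 and moved to −0.25 without a filter, −0.28 with limma on log2(TPM + 1), −0.45 on log2(TPM + 0.1) and −0.28 with voom weights, and fold changes are to be read relative to it. The sign of the 9 called genes did not turn in any alternative; of all 2163 values of 136 named genes under alternatives, 104 turned in sign, all in genes not called. The count against TRAP (353) moved to 119 without a filter, 3082 with DESeq2, 612 with limma, 196 with the length trend removed and 4 to 947 without 1 library. That against EU (327) moved to 2250 with DESeq2, 164 with limma and 32 to 1408 without 1 library. Same-numbered libraries did not deviate together (correlations −0.0116, −0.00499 and −0.0121), so no pairing by number showed in these values. The labels do not say whether same-numbered libraries were prepared together, and these correlations cannot decide it. With a replicate block the counts were 0 by edgeR (1531 at an unadjusted p under 0.05), 4 against TRAP and 6 against EU. The cause of these moves was not tested. Depth differed with the label, 28151594 to 29425848 counts in fmr1ko libraries and 40395916 to 48263706 in wild type, so genes at a few counts are the least certain, above all on the fmr1ko side.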
